A study of Mus musculus with 20 samples.

Results

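Kidney size differed widely among 10 mice in which the same gene had been deleted, and the question here was which transcripts in the kidney followed that size. The 10 mice were those labelled Pkd2fl/fl; Pax8; Tet-O-Cre + out of 20 sequenced, 5 males and 5 females, each with 1 kidney RNA library. Severity was taken as KBW, the weight given for 1 kidney as a percentage of body weight, and each gene was tested for a slope on KBW with sex as a covariate. The other 10 mice, 5 males and 5 females, were the controls and served as the reference range. That range pools both sexes, so a mutant inside it may lie outside the controls of its own sex. All 20 were on an inbred C57BL/6 background, received Doxycycline Hyclate at 50 mg/kg daily from P27 to P29, and were studied at P125. In mutants, DOX switches on a Cre under a Pax8 promoter that is active in all tubule segments, so the deletion of Pkd2 is aimed at tubule cells. Controls were littermates that lacked the Pax8-rtTA or the TetO-Cre transgene, and they carried floxed Pkd2 and received the same DOX. Each mouse gave 1 library, so the p-values below measure the spread between mice.

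Pkd2 encodes polycystin-2, a cation channel of the primary cilium that works together with polycystin-1, and loss of either causes autosomal dominant polycystic kidney disease. Cysts are dilated tubule segments. As they grow, the tubule wall between and around them takes on an injured, less differentiated state, macrophages gather, and fibroblasts lay down collagen. Kidney weight relative to body weight is the usual summary of how far this has gone in a mouse, although it counts fluid as well as tissue.

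KBW rose from 0.836% in the mildest mutant to 2.15% in the most enlarged. In the female mutants, called FM1 to FM5 here, it was 0.836% in FM4, 1.00% in FM5, 1.24% in FM2, 1.38% in FM1 and 1.46% in FM3. In the male mutants, MM1 to MM5, it was 1.22% in MM2, 1.54% in MM4, 1.71% in MM5, 1.79% in MM3 and 2.15% in MM1. The mean was 1.18% ± 0.261 (SD, n = 5) in females and 1.68% ± 0.338 (SD, n = 5) in males, and 4 of the 5 males were above every female. FM4 lay inside the control range of 0.555% to 0.896%, and the other 9 mutants lay above it. The mutants came from 3 litters: MM1, MM2 and FM1 from litter A, MM3, MM4, FM2, FM3 and FM4 from litter B, and MM5 and FM5 from litter C.

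**Figure D1:**
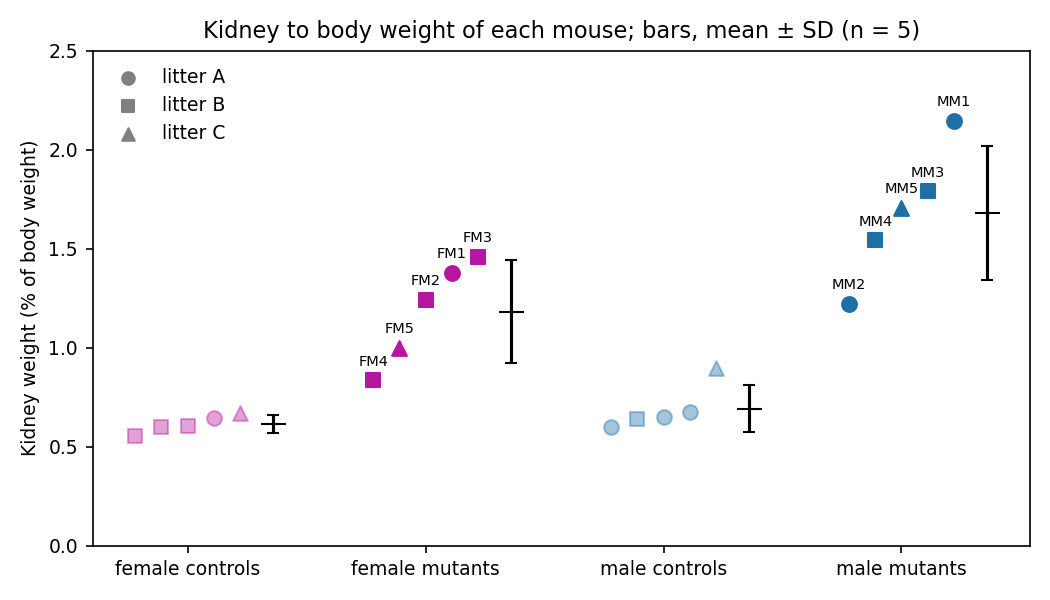
Kidney weight as a percentage of body weight for each of the 20 mice, by sex and genotype, with symbols for the 3 litters and bars for the mean ± SD of 5 mice. The male mutants spread from 1.22% to 2.15% and the female mutants from 0.836% to 1.46%, and only FM4 overlaps the controls.

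One library stood apart. FM4 had 11307741 counts, the lowest of the 20 (highest 19324073), and 14850 genes with a count where the other 19 libraries had 16776 to 17724. Only 76 genes had exactly 1 count in FM4, against 708 to 859 in the others, and of the 1023 tested genes under 1 CPM (counts scaled to the library total, with TMM scaling) 410 were at 0 in FM4 and 4 to 22 in each of the other mutants. FM4 was also the mutant with the lowest KBW, and the number of genes detected rose with KBW, by 1470 genes per percentage point (exact permutation test within sex, n = 10, two-sided p = 0.00618, adjusted p = 0.0185 over 3 values tested), and by 280 without FM4. The library total did not pass the same test (4560000 counts per percentage point, exact p = 0.0652). The part of these library differences in the slopes below was not tested, and results are given with and without FM4 and MM1, the 2 ends of the gradient.

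Of 14865 genes tested, 292 (1.96%) were higher and 75 (0.505%) lower with KBW at an adjusted p under 0.05 (edgeR quasi-likelihood test, Benjamini-Hochberg). A slope is the log2 change per percentage point of KBW, with the level on a log2 scale of CPM. The median slope of all genes tested was -0.06, with a median standard error of 0.27. Of these slopes, 6722 were above 0 and 8143 below. The median size of slope was 1.82 among the 292 and 1.20 among the 75. The smallest adjusted p was 0.0271, none was under 0.01, and 3274 genes had an unadjusted p under 0.05. The calls sat near the threshold. With edgeR none was left (0 genes) without FM4, without MM1, without FM3 or without FM5, where 2522, 2380, 2868 and 2771 genes had an unadjusted p under 0.05. There was 1 left without MM3, 65 without FM2 and 152 without FM1, while 318 passed without MM2, 727 without MM4 and 721 without MM5. All 367 called genes kept their sign, and an unadjusted p under 0.05, in each of these 10 fits. They were chosen for a slope over the same mice, so this, and the counts of kept signs that follow, describes the fits and is no independent check.

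Without both FM4 and MM1, no gene of 15033 passed the edgeR test (1130 at an unadjusted p under 0.05). All 367 kept the sign of their slope and 302 had an unadjusted p under 0.05. Their median size of slope was then 1.51. DESeq2's Wald test on the 10 mice called 1350 genes, 889 higher and 461 lower, among them all 367. With litter added to sex, 396 genes passed, 292 of them among the 367. In the 5 mice of litter B alone none passed (2148 at an unadjusted p under 0.05), and all 364 of the called genes tested there had the same sign. Without the sex term 352 of the 367 kept their sign. Of the 367, 92 then had an unadjusted p under 0.05 and 29 were still called, with a median size of slope of 0.704. Litters A and C had 3 and 2 mutants, too few for a slope within them.

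Pkd2 itself, on chromosome 5 (GRCm38, 104459450 to 104505819, plus strand), was the first gene looked at. Its level was 182, 166, 133, 150 and 94.7 CPM in FM4, FM5, FM2, FM1 and FM3, in order of KBW, and 124, 133, 120, 110 and 110 CPM in MM2, MM4, MM5, MM3 and MM1. All 10 mutants lay below the lowest of the controls, which had 193 to 332 CPM. Within the mutants the level was lowest in the mice with the largest kidneys of each sex, with a log2 slope of -0.59 per percentage point (exact permutation test within sex, two-sided p = 0.0128, adjusted p = 0.0192 over 3 values, n = 10) and of -0.48 without FM4. In the edgeR fit over all genes, the slope was -0.60 ± 0.22 (SE), and the adjusted p of 0.140 missed the threshold. That slope was -0.37 without FM3, the nearest to 0 with 1 mouse left out, and it was -0.27 in males alone and -1.04 in females alone. The count covers the whole gene and RNA from cells that never expressed Cre, so it does not measure how many cells lost the gene. In a bulk sample fewer cells of a type and less RNA per cell cannot be told apart, here and for every gene below. Pkd1, the partner of Pkd2, had a slope of -0.04 ± 0.47 (SE, adjusted p = 0.970) whose sign changed in 10 of the other fits. Of the 24 tested genes known from cystic kidney diseases, none passed, and their median slope was -0.10.

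The group with the most called genes was tubule injury and repair, of which 19 of 26 rose with KBW (1.96% of all genes did), none fell, and the median slope was 2.11. Havcr1, which encodes the injury marker KIM-1 of proximal tubule cells (chromosome 11, 46735080 to 46779578), was at 9.66, 11.7, 116, 162 and 163 CPM in the females in order of KBW. In the males in order of KBW it was at 37.6, 82.6, 36.6, 115 and 344 CPM. Every mutant was above the controls, whose highest was 4.13 CPM, and the slope was 4.49 ± 0.83 (SE, adjusted p = 0.0299). Lcn2, the iron-binding secreted protein NGAL that injured distal tubules release, ran from 9.92 and 9.22 to 68.7, 120 and 161 CPM in females and read 22.4, 64.9, 17.9, 59.1 and 129 CPM in males. Its slope was 3.97 ± 0.93 (SE, adjusted p = 0.0464), again with no overlap with the controls (0.951 to 4.77 CPM). Within each sex the 2 females of lowest KBW were far below the other 3, and MM5 read as low as MM2.

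Other injury genes moved in smaller steps. Cd44, a hyaluronan receptor of regenerating tubule cells, had a slope of 2.99 ± 0.47 (SE, adjusted p = 0.0271). Its levels were 7.42, 10.0, 21.2, 36.2 and 43.3 CPM in females and 8.68, 18.3, 8.69, 19.8 and 42.9 CPM in males, with controls at 2.19 to 5.11 CPM. Sox4, a transcription factor of immature epithelium, rose by 1.87 ± 0.31 per percentage point, Lgals3, a galactose-binding lectin, by 1.96 ± 0.31, and Dcdc2a, a protein of the ciliary shaft, by 2.36 ± 0.36 (SE, adjusted p = 0.0271 for each). Vcam1, an adhesion molecule that failed-repair tubule cells and vessels carry, had a slope of 2.89 ± 0.51 and Spp1, the secreted matrix protein osteopontin, one of 2.55 ± 0.44. Krt20, a keratin that appears in damaged tubules, had a slope of 3.68 ± 0.72 (SE, adjusted p = 0.0333). These 3 were picked from the list after their values were seen. Krt7 did not pass, at 0.89 ± 0.29 (SE, adjusted p = 0.103). Without FM4 and MM1, the median slope of the list was 1.82.

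**Figure D2:**
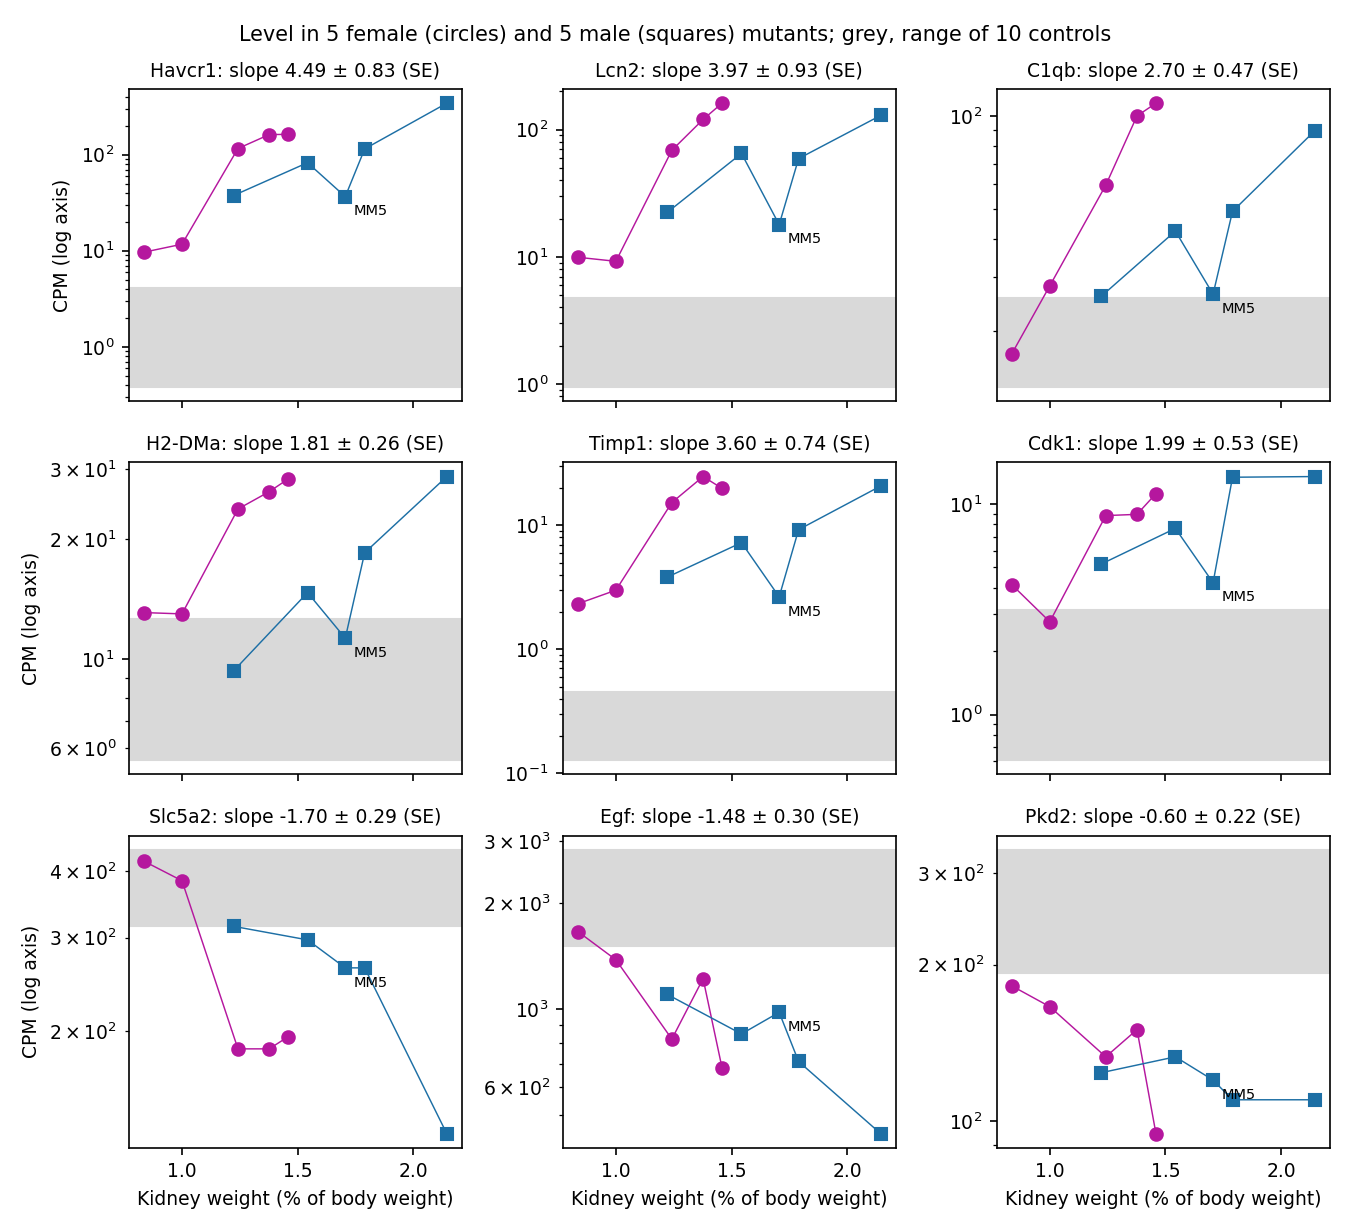
Levels in CPM (log axis) of 9 genes in each mutant against its kidney weight as a percentage of body weight, with females as circles and males as squares, and grey bands for the range of the 10 controls. Havcr1 rises from 9.66 to 163 CPM in females and reaches 344 CPM in MM1, Slc5a2 and Egf run downwards, and MM5 sits below MM4 for the rising genes although its kidney was larger.

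Macrophage genes also rose with KBW. Of 27 tested, 15 rose and none fell, with a median slope of 2.36 and of 2.29 without FM4 and MM1. C1qb, a chain of the complement starter C1q that tissue macrophages make, was at 16.9, 28.1, 59.6, 100 and 110 CPM in the females in order of KBW and at 26.0, 42.3, 26.4, 49.0 and 89.4 CPM in the males. FM4 lay inside the control range of 13.2 to 25.6 CPM and the other 9 above it, with MM2 and MM5 just past its upper end. The slope was 2.70 ± 0.47 (SE, adjusted p = 0.0271). Cd14, the co-receptor for bacterial lipopolysaccharide, had a slope of 2.73 ± 0.43, Cx3cr1, the fractalkine receptor, of 2.18 ± 0.35, and Tyrobp, a signalling adaptor of myeloid receptors, of 2.34 ± 0.43 (SE, adjusted p = 0.0271, 0.0271 and 0.0299). Cd68, a lysosomal protein of macrophages, was at 7.07, 6.34, 11.3, 13.3 and 23.8 CPM in females and 6.22, 10.7, 4.35, 8.84 and 16.7 CPM in males, and its slope of 1.85 ± 0.50 (SE) missed the threshold (adjusted p = 0.0673). Summed over the list, the level ran from 381 to 1620 CPM across the mutants.

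Genes that recruit these cells, and complement genes, had calls in the same direction. Of 32 chemokines and receptors 6 rose, with a median slope of 2.06, and of 22 complement genes 7 rose, with a median of 1.82, and none fell in either list. Ccl2, the ligand that draws monocytes, was at 1.21, 2.70, 9.05, 13.0 and 8.5 CPM in females and 1.91, 4.03, 1.69, 5.90 and 10.5 CPM in males, above the controls (0.243 to 1.09 CPM) in every mutant. Its slope was 3.38 ± 0.69 (SE, adjusted p = 0.0358). Ccl5, a ligand that draws T cells and macrophages, rose by 2.10 ± 0.44 per percentage point and Ccl6 by 2.59 ± 0.53 (SE, adjusted p = 0.0383 and 0.0358). C3, the central complement component, which was picked after its values were seen, rose by 3.29 ± 0.59, Cfi, the protease that inactivates C3b, by 1.65 ± 0.29, and C3ar1, the receptor for the C3a fragment, by 3.20 ± 0.56 (SE, adjusted p = 0.0277, 0.0271 and 0.0271). C4b had a slope of 2.86 ± 0.43 (SE, adjusted p = 0.0271), and it shares reads with the near-identical C4a, so the split between the pair is uncertain. The lists overlap: Ccl2 is also an injury gene and the C1q chains are also macrophage genes.

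Antigen presentation by MHC class II, the pathway by which dendritic cells, B cells and macrophages show peptides to helper T cells, rose in 8 of 15 tested genes with none falling and a median slope of 1.78 (1.57 without FM4 and MM1). H2-DMa, which loads peptides onto class II molecules, was at 13.1, 13.0, 23.8, 26.3 and 28.3 CPM in females and 9.36, 14.7, 11.3, 18.5 and 28.7 CPM in males. MM2 and MM5 lay inside the control range of 5.59 to 12.6 CPM, which pools both sexes, and the other 8 above it. Summed over the list, MM2 and MM5 were at 633 and 580 CPM, against medians of 382 CPM in male and 512 CPM in female controls. The slope of H2-DMa was 1.81 ± 0.26 (SE, adjusted p = 0.0271), with 1.69 in males alone and 2.12 in females alone. H2-Ab1 and H2-Aa, the chains of the class II molecule I-A, rose by 1.86 ± 0.30 and 1.82 ± 0.33 per percentage point and Cd74, the invariant chain that guides them, by 1.96 ± 0.35 (SE, adjusted p = 0.0271, 0.0277 and 0.0271). H2-Eb1, H2-DMb1, H2-DMb2 and Cd86 made up the rest of the 8, with slopes of 1.68, 1.28, 2.34 and 2.04. Cd86 did not pass when litter was added (adjusted p = 0.0658). Class II genes are close relatives, and H2-DMb1 and H2-DMb2 in particular may share reads.

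Class II promoters are known for a shared set of short elements, one of which, the Y box, has the letters GATTGG or CCAATC. The 250 bases before their start sites were searched on both strands for GATTGG, a search added after the slopes were seen, to show what these promoters share. RefSeq promoters (GRCm38.p6) were found for 10 of the 15 tested genes, and 7 of the 10 (70.0%) held the letters, against 16.6% of 27025 genes with a promoter. The 5 called genes among the 7 were H2-Aa, H2-Eb1, H2-DMa, H2-DMb1 and H2-DMb2, and H2-Oa and H2-Ob held the letters too but had slopes of 1.36 and 0.92 that did not pass. The shorter CCAAT, which lies within the same letters, was in 8 of the 10 genes (80.0%) and in 37.5% of all genes. The 120 bases before the start sites of 4 called genes are shown, 5′ to 3′ on the gene's strand, with the matches in capitals. They show that the match lay 49 to 91 bases before the start in each, and that H2-Eb1 had another on the opposite strand, 35 bases before it.
H2-Aa, chr17:34287824-34287943, minus strand: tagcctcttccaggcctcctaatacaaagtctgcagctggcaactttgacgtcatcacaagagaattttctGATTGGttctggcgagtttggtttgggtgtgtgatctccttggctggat
H2-Eb1, chr17:34305747-34305866, plus strand: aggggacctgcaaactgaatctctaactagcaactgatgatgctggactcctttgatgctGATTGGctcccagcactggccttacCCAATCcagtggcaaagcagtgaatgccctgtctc
H2-DMb1, chr17:34153071-34153190, plus strand: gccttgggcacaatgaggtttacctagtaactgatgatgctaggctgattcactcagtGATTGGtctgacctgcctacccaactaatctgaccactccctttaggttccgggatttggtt
H2-DMb2, chr17:34145129-34145248, plus strand: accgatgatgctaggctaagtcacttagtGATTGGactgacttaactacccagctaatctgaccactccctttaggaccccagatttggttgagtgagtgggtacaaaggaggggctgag
In one of the 2 H2-DMa promoters of the table the match lay 199 bases before the start. A match is a run of letters, and binding was not measured.

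Of the interferon response and MHC class I genes, 7 of 31 rose and none fell. All 31 slopes were above 0, 23 with an unadjusted p under 0.05, and the median slope was 1.44. Over all genes tested, 6722 of 14865 slopes were above 0 and 3274 genes had an unadjusted p under 0.05. Gbp2, an interferon-induced GTPase, had one of the smallest p-values of all genes, and was named after its values were seen. It was at 21.4, 33.5, 40.2, 63.4 and 63.5 CPM in the females and 20.0, 27.7, 30.5, 57.3 and 60.3 CPM in the males, so that in both sexes no mouse was below one with a smaller kidney. Its slope was 2.09 ± 0.28 (SE, adjusted p = 0.0271) and 2.25 without FM4 and MM1. Irf1, the transcription factor that interferon gamma induces, rose by 1.17 ± 0.23, Psmb8, a proteasome subunit that trims peptides for class I, by 1.79 ± 0.37, and Tap1, which carries those peptides into the endoplasmic reticulum, by 1.44 ± 0.30 (SE, adjusted p = 0.0351, 0.0358 and 0.0392). FM1 had the highest value for Irf1, Psmb8 and Tap1, at 62.4, 57.8 and 53.6 CPM, ahead of FM3 and of all males.

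T and B lymphocyte genes had a median slope of 1.84, close to that of MHC class II, but only 1 of 22 passed (1.96% of all genes rose). That gene was Lck, the kinase of the T-cell receptor, with 1.81, 3.64, 4.73, 5.65 and 5.92 CPM in females and 1.44, 2.97, 2.20, 2.62 and 4.30 CPM in males, and a slope of 1.81 ± 0.43 (SE, adjusted p = 0.0470). It did not pass when litter was added (adjusted p = 0.0777). Cd3e, a chain of that receptor, had no count in FM4 and 0.508 to 2.78 CPM in the other mutants, and its slope of 2.48 ± 1.06 (SE) was 1.6 at its lowest when 1 mouse was left out (adjusted p = 0.196 with all 10).

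**Figure D3:**
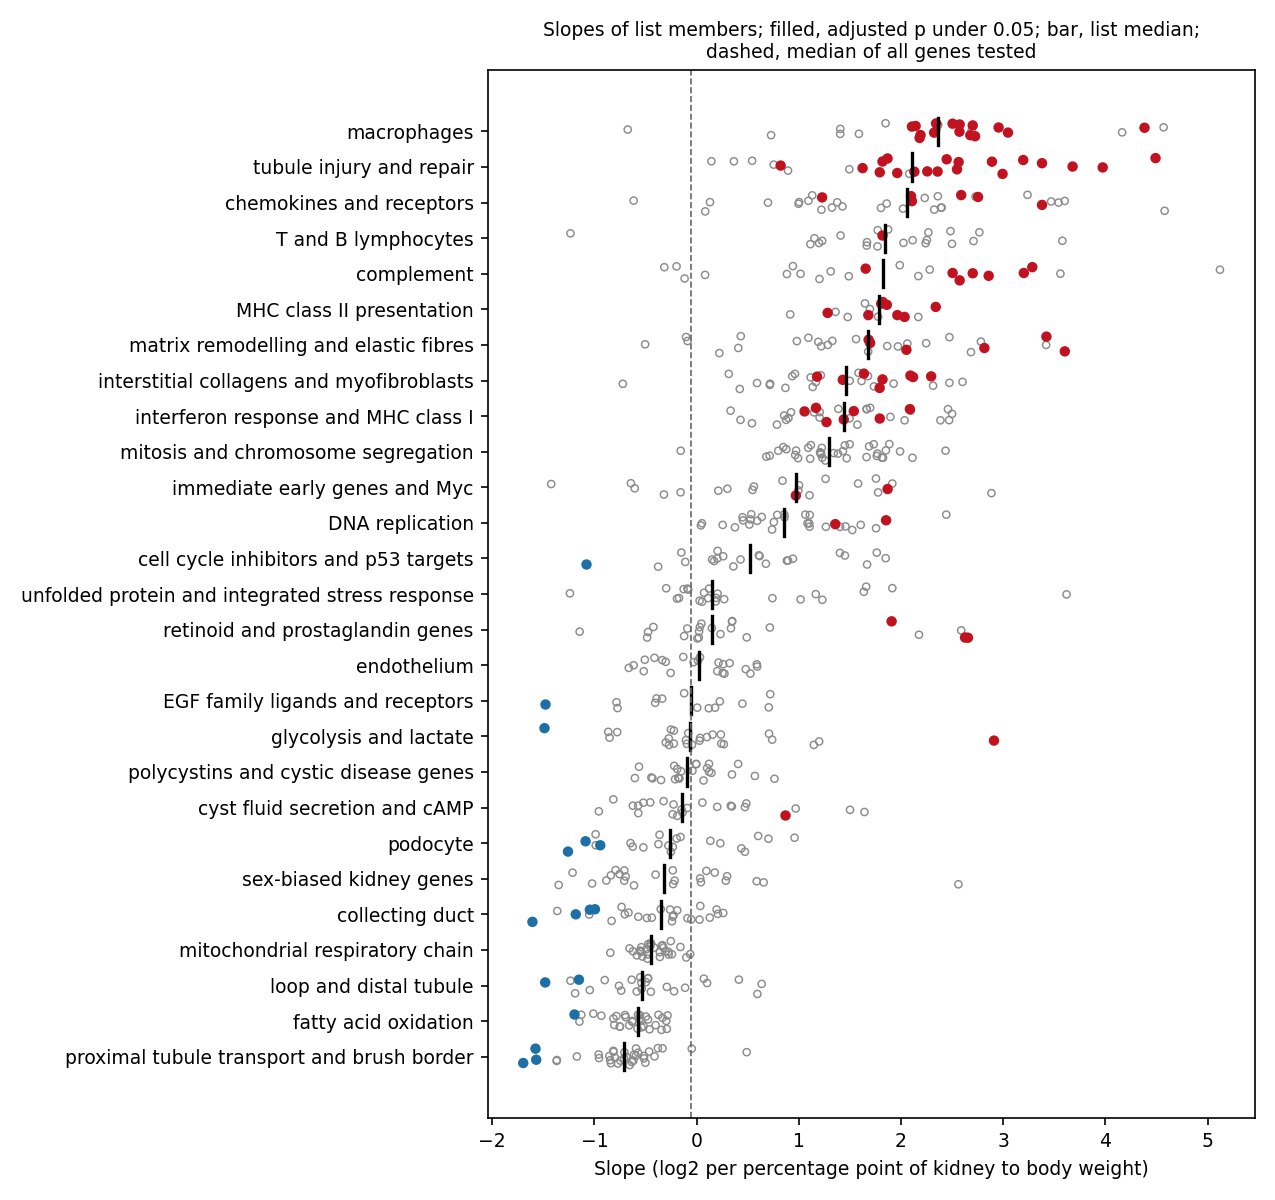
Slope on kidney to body weight (log2 per percentage point) of every tested member of 27 gene lists, with called genes filled and black bars for the list medians. Macrophage and tubule injury genes lie furthest to the right, with medians of 2.36 and 2.11, mitosis genes are shifted to a median of 1.30 with none filled, and proximal tubule genes have the lowest median at -0.71.

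Among the genes of scar tissue, 8 of 30 interstitial collagen and myofibroblast genes rose (median slope 1.46) and 6 of 28 matrix remodelling genes rose (median 1.68), with none falling. Timp1, an inhibitor of matrix metalloproteinases, was at 2.33, 3.0, 15.3, 24.8 and 19.9 CPM in females and 3.83, 7.26, 2.65, 9.24 and 20.8 CPM in males. No control was above 0.456 CPM, and the slope was 3.60 ± 0.74 (SE, adjusted p = 0.0358). Ltbp2, a protein of elastic microfibrils, was at 2.33, 3.64, 11.1, 14.3 and 22.2 CPM in females and 2.19, 10.0, 1.92, 7.53 and 15.1 CPM in males, with a slope of 3.42 ± 0.80 (SE, adjusted p = 0.0461). Both were apart from the controls in every mutant, FM4 included. Loxl2, which cross-links collagen, rose by 1.64 ± 0.34, Sparc, a collagen-binding protein, by 1.68 ± 0.33, and Mmp14, a membrane-bound collagenase, by 1.70 ± 0.39 (SE, adjusted p = 0.0386, 0.0339 and 0.0454). Col1a2, a chain of type I collagen, rose by 1.82 ± 0.41 (SE, adjusted p = 0.0440). Thy1, a surface protein of fibroblasts and other cells, rose by 2.29 ± 0.52 (SE, adjusted p = 0.0440). Tagln, an actin-binding protein of smooth muscle and myofibroblasts, rose by 1.79 ± 0.41 (SE, adjusted p = 0.0444). Col1a1, the other chain, had a larger slope and a larger error, 2.31 ± 0.59 (SE), and missed the threshold at an adjusted p of 0.0594, with 214 CPM in FM3 against 142 CPM in MM1. With litter added it passed (adjusted p = 0.0255).

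Proliferation genes had slopes mostly above 0, but none of the mitosis list was called. Of 36 genes of mitosis and chromosome segregation, 35 had a slope above 0 and 25 an unadjusted p under 0.05. Over all genes tested these counts were 6722 and 3274 of 14865. The median slope of the list was 1.30, and its smallest adjusted p was 0.0516. Cdk1, the kinase that drives entry into mitosis, was at 4.14, 2.76, 8.81, 8.93 and 11.2 CPM in females and 5.19, 7.66, 4.23, 13.4 and 13.5 CPM in males. The controls had 0.607 to 3.15 CPM, so FM5 lay inside their range and the other 9 above it. Its slope was 1.99 ± 0.53 (SE, adjusted p = 0.0643). Mki67, a marker of cycling cells, had a slope of 1.89 ± 0.53 and Top2a, the topoisomerase that untangles chromosomes, of 1.66 ± 0.52 (SE, adjusted p = 0.0746 and 0.0960). Kif2c, a kinesin of the centromere, had the smallest p of the list, with a slope of 2.44 ± 0.59, and Bub1b and Cenpe, which act in the spindle checkpoint, had 1.69 ± 0.45 and 1.47 ± 0.39 (SE, adjusted p = 0.0517, 0.0640 and 0.0628). Without FM4 and MM1 the median slope of the list was 1.90, and 8 of the genes passed when litter was added, Cdk1, Mki67, Kif2c, Bub1b and Cenpe among them, and 17 by DESeq2's Wald test. Of the 30 tested replication genes, 2 rose (1.96% of all genes did), with a list median slope of 0.86. Uhrf1, which carries methylation marks through replication, rose by 1.85 ± 0.43, and Mcm3, a subunit of the replicative helicase, by 1.36 ± 0.32 (SE, adjusted p = 0.0461 and 0.0473). Uhrf1 did not pass when litter was added (adjusted p = 0.0544).

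Short elements known from cell cycle promoters were also counted in the mitosis list, again as a description. In the 250 bases before the start, on both strands, CCAAT was found in 22 of 30 genes with a promoter (73.3%) and in 37.5% of all genes. TTTGAA was found in 11 (36.7%, against 18.3%) and TTCGAA in 2 (6.67%, against 1.55%).

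Immediate early genes and Myc had a median slope of 0.97 over 21 genes, and 2 rose (1.96% of all genes did). Junb, a subunit of the AP-1 transcription factor, rose by 1.87 ± 0.42 and Ier2 by 0.97 ± 0.23 (SE, adjusted p = 0.0440 and 0.0478). Myc itself was at 11, 10.3, 20.6, 21.0 and 20.1 CPM in females and 5.47, 15.2, 5.64, 16 and 20.5 CPM in males, and its slope of 1.78 ± 0.47 (SE) missed the threshold (adjusted p = 0.0646). With litter added Myc passed (adjusted p = 0.0431) and Ier2 did not (adjusted p = 0.0691). Among 22 cell cycle inhibitors and p53 targets, 18 had a slope above 0 and 10 an unadjusted p under 0.05, with a median slope of 0.52. DESeq2's Wald test called 7 of them higher and 1 lower. In the edgeR fit none rose and 1 fell. That gene, Cdkn1c, encodes the inhibitor p57, which podocytes also express, and it had a slope of -1.09 ± 0.22 (SE, adjusted p = 0.0358). Phlda3 and Bbc3, which p53 induces, had slopes of 1.45 ± 0.38 and 1.76 ± 0.51 (SE, adjusted p = 0.0627 and 0.0794).

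Falling genes were fewer, and the lists of nephron segments held a small part of the 75. In the proximal tubule, 3 of 35 transport and brush border genes fell (0.505% of all genes did), none rose, and 34 had a slope below 0, with a median of -0.71. Slc5a2, the main glucose carrier SGLT2 of the early proximal tubule (chromosome 7, 128265657 to 128272430), was at 418, 384, 185, 185 and 195 CPM in the females in order of KBW. In the males it was at 315, 297, 263, 263 and 128 CPM. The controls had 316 to 439 CPM, so FM4 and FM5 were inside their range and the other 8 below it, and the slope was -1.70 ± 0.29 (SE, adjusted p = 0.0271). Slc34a3, a phosphate carrier, fell by 1.58 ± 0.29 and Slc6a19, a carrier of neutral amino acids, by 1.57 ± 0.37 per percentage point (SE, adjusted p = 0.0296 and 0.0466). Slc34a1, the main phosphate carrier, had a slope of -1.17 ± 0.29 (SE) and Lrp2, the endocytic receptor megalin, of -0.62 ± 0.29 (SE), and neither passed (adjusted p = 0.0573 and 0.234). With litter added Slc34a1 passed (adjusted p = 0.0469).

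The genes of fatty acid oxidation, the main fuel use of the proximal tubule, all had slopes below 0 (32 of 32), with a median of -0.58, yet 1 passed. Acsm1, an acyl-CoA synthetase for medium-chain fatty acids, fell by 1.20 ± 0.28 per percentage point (SE, adjusted p = 0.0445). Its levels were 397, 436, 288, 277 and 166 CPM in females and 231, 162, 200, 175 and 129 CPM in males. Respiratory chain genes were likewise below 0 in 30 of 30, with a median of -0.45, 9 at an unadjusted p under 0.05 and none called. Over all genes tested, 8143 of 14865 slopes were below 0 and 3274 genes had an unadjusted p under 0.05. Genes over 100 CPM had a median slope of -0.20. Of 26 glycolysis and gluconeogenesis genes, Hk2, the hexokinase that tissues switch on when they use more glucose, rose by 2.91 ± 0.67 and Pck1, the key enzyme of gluconeogenesis, fell by 1.49 ± 0.28 (SE, adjusted p = 0.0445 and 0.0301). Hk2 was at 1.72, 1.94, 7.13, 7.32 and 13.3 CPM in females and 1.64, 4.23, 2.03, 4.19 and 5.99 CPM in males, with the highest level in FM3.

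Downstream segments had falls of their own. In the loop and distal tubule, 2 of 25 genes fell and none rose, with a median slope of -0.54. Egf, a growth factor precursor made in the thick ascending limb and distal convoluted tubule (chromosome 3, 129677565 to 129755316, minus strand), was at 1660, 1380, 822, 1220 and 681 CPM in females and 1100, 850, 979, 710 and 443 CPM in males. FM4 alone was inside the control range of 1510 to 2830 CPM, and the slope was -1.48 ± 0.30 (SE, adjusted p = 0.0358). Slc12a3, the thiazide-sensitive sodium chloride carrier, fell by 1.15 ± 0.22 (SE, adjusted p = 0.0299). Umod, the most characteristic protein of the thick ascending limb, had a slope of 0.10 ± 0.21 (SE, adjusted p = 0.818), with 3320 to 4330 CPM in females and 3100 to 3490 CPM in males. Egf also belongs to the 14 tested genes of its own ligand and receptor family, of which no other passed. The summed level of that list was 2540 CPM in FM4, against medians of 3470 CPM in female and 2580 CPM in male controls.

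In the collecting duct list, 4 of 27 genes fell, none rose, and the median slope was -0.35. All 4 belong to intercalated cells, the cells that move acid and base. Slc4a9, an anion carrier of the basolateral side, was at 109, 127, 63.5, 81.9 and 45.8 CPM in females and 76.4, 56.0, 53, 46.1 and 30.4 CPM in males, with a slope of -1.61 ± 0.26 (SE, adjusted p = 0.0271). Slc26a4, the chloride-bicarbonate exchanger pendrin, had a slope of -1.18 ± 0.25, Atp6v1b1, a subunit of the proton pump, of -1.04 ± 0.24, and Rhbg, an ammonia channel, of -1.0 ± 0.22 (SE, adjusted p = 0.0383, 0.0440 and 0.0440). Aqp2, the water channel of principal cells, had a slope of -0.19 ± 0.36 (SE, adjusted p = 0.802) that changed sign in males alone and without FM3.

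Of 22 podocyte genes, 3 fell and none rose, with a median slope of -0.26. Vegfa, the vascular growth factor of podocytes and tubules, fell by 1.26 ± 0.27 (SE, adjusted p = 0.0394), and Cdkn1c, described above, was among the 3. Endothelial genes had a median slope of 0.02 over 22 genes, with none called and 2 at an unadjusted p under 0.05.

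**Figure D4:**
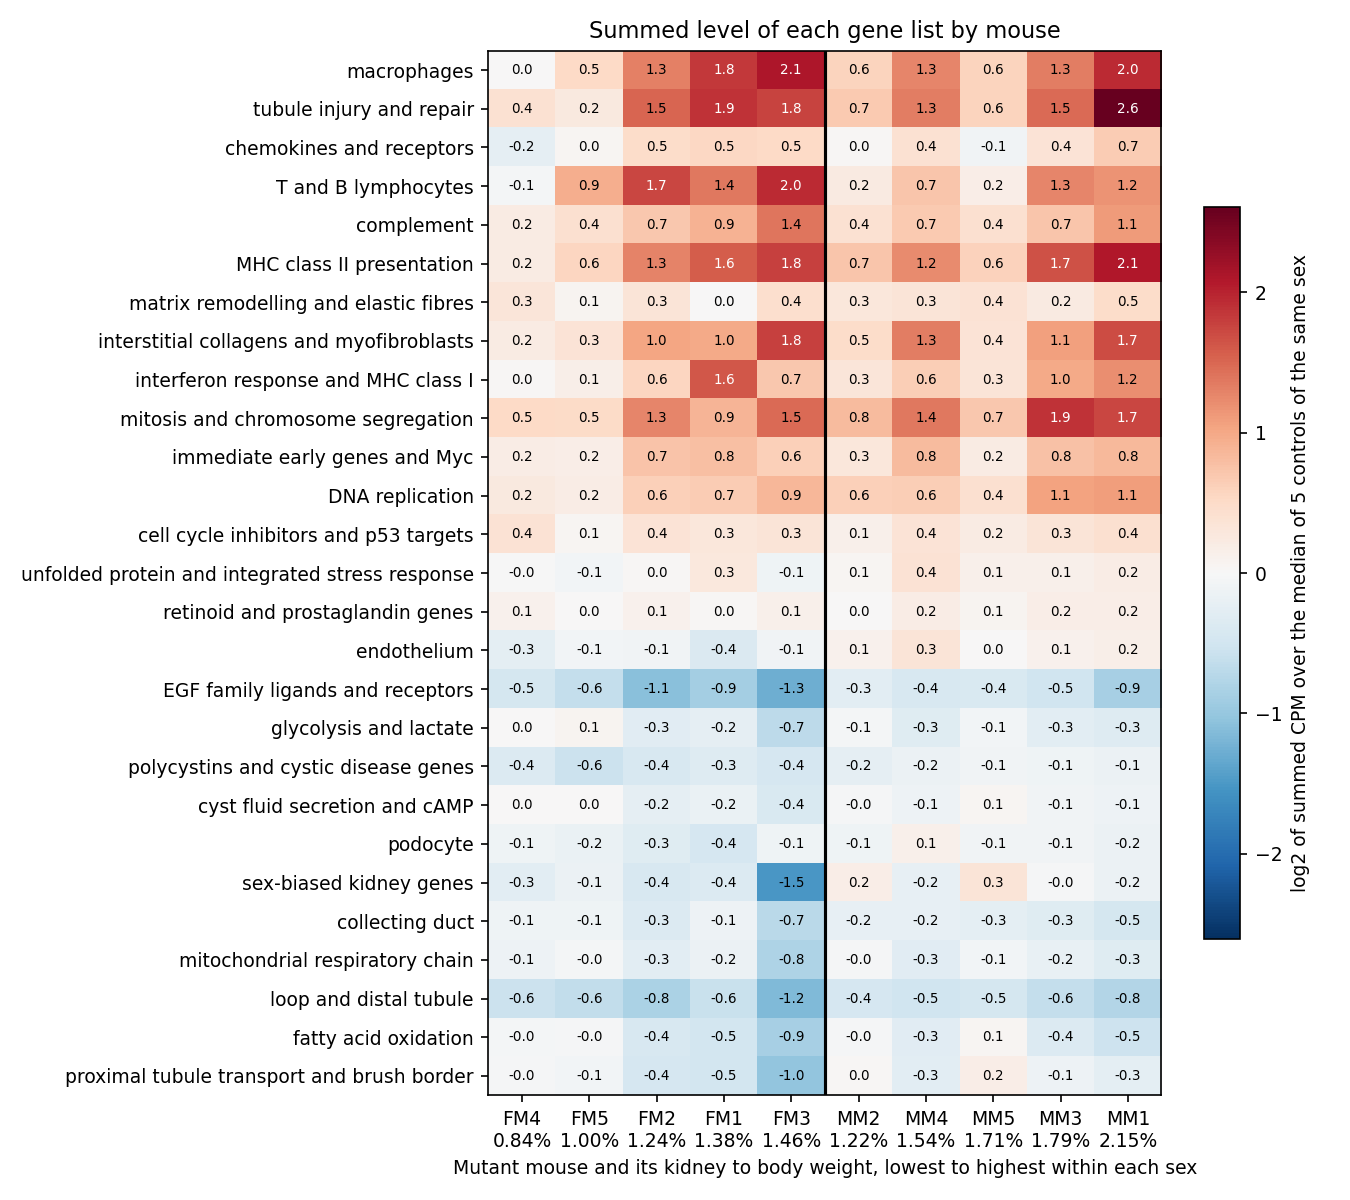
Summed CPM of 27 gene lists in each mutant, as log2 of the ratio to the median of the 5 controls of the same sex, with mice ordered by kidney to body weight within each sex. Macrophage genes run from 0.01 in FM4 to 2.10 in FM3 and from 0.58 in MM2 to 1.95 in MM1, and the MM5 column is paler than its neighbours at 0.58.

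The largest slopes of all, among called genes with a mean of at least 1 CPM, began with Dio2, the enzyme that converts thyroxine to its active form. It was at 3.36, 1.41, 15.2, 15.2 and 50.1 CPM in females and 1.5, 15.3, 2.20, 13.4 and 33.5 CPM in males, with a slope of 4.96 ± 1.11 (SE, adjusted p = 0.0440). Clec4n, the fungal pattern receptor dectin-2 of myeloid cells, had a slope of 4.52 ± 1.08 (SE, adjusted p = 0.0482) with no count in FM4, and of 4.42 without FM4 and MM1. It did not pass when litter was added (adjusted p = 0.0683). Havcr1 came next, and Sox8, a transcription factor related to Sox9, Mybpc2, a myosin-binding protein of fast muscle, and AA467197 followed with slopes of 4.28 ± 0.75, 4.16 ± 0.75 and 4.13 ± 0.90 (SE, adjusted p = 0.0271, 0.0278 and 0.0410). Next came Lcn2, Rgs16, a regulator of G-protein signalling, Serpina10, an inhibitor of coagulation factor Xa, and Bcl2a1a, an anti-apoptotic gene with near-identical copies whose reads may be split. The last 3 of these had slopes of 3.77 ± 0.73, 3.77 ± 0.66 and 3.69 ± 0.74 (SE, adjusted p = 0.0326, 0.0271 and 0.0358), and Bcl2a1a did not pass when litter was added (adjusted p = 0.0557). Serpina10 was above every control in all 10 mutants, with 6.90, 7.34, 36.7, 51.7 and 55.9 CPM in females and 7.52, 19.8, 7.05, 25.2 and 52.7 CPM in males, against 0.568 to 2.57 CPM in controls.

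The largest falls were led by Snhg11, a noncoding host gene of small nucleolar RNAs, at 180, 289, 118, 105 and 60.6 CPM in females and 112, 113, 88.1, 81.0 and 31.1 CPM in males. Its slope was -2.39 ± 0.45 (SE, adjusted p = 0.0299). Insrr, a receptor that senses alkaline pH in intercalated cells, was at 46.8, 45.0, 23.6, 26.0 and 18.8 CPM in females and 33.4, 26.5, 24.4, 23.2 and 11.3 CPM in males, with a slope of -1.84 ± 0.25 (SE, adjusted p = 0.0271). In males each of these genes was lowest in MM1 by a wide step. The other falls were AI507597 (-2.14), Angptl7, a secreted angiopoietin-like protein (-2.07), Ggnbp1 (-1.78), Atxn7l2 (-1.77), Slc5a2, Chrna4, a subunit of a nicotinic acetylcholine receptor (-1.68), Tle2, a transcriptional corepressor (-1.64), and Slc4a9. Angptl7 had a slope above 0 when the sex term was dropped (0.39), and AI507597 did not pass when litter was added (adjusted p = 0.0691). Of the 10 genes with the smallest p, picked after their values were seen, Gprc5a, a receptor induced by retinoic acid, came first, with 8.97, 7.70, 15.5, 16.8 and 22.9 CPM in females and 3.76, 6.60, 5.70, 10.5 and 16.7 CPM in males. Its slope was 2.32 ± 0.31 (SE, adjusted p = 0.0271) and 2.62 without FM4 and MM1. Cd52 and Ly86 of immune cells, Tmem98 and the tight junction gene Cldn3 were also among the 10, with slopes of 1.95, 2.41, 1.63 and 1.61.

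Other genes of interest in cystic kidneys had no slope on KBW that passed the test, among them 3 whose mutant and control levels did not overlap. Ptgds, which makes prostaglandin D2, was at 40.9 to 80.3 CPM in the mutants and 2.56 to 11.4 CPM in controls, and its slope was 0.49 ± 0.28 (SE, adjusted p = 0.330). Aldh1a1, an enzyme of retinoic acid synthesis, was at 42.6 to 76.0 CPM in females and 20.0 to 45.0 CPM in males, with a slope of 0.05 ± 0.40, and Stra6, the retinol importer, had a slope of 0.34 ± 0.40 (SE, adjusted p = 0.961 and 0.667). Stra6 was at 9.91 to 30.8 CPM in the mutants and 0.649 to 7.06 CPM in controls. The signs of the Aldh1a1 and Stra6 slopes changed in several other fits. Mogat2, an enzyme of triglyceride synthesis, was at 2.07 to 6.15 CPM in mutants and 10.1 to 17.8 CPM in controls, and had a slope of -0.67 ± 0.64 (SE, adjusted p = 0.579). Other members of the same retinoid and prostaglandin list did rise, 3 of 23 (1.96% of all genes did), with a list median of 0.15. Among them were Hpgds, another prostaglandin D2 synthase, by 2.65 ± 0.43, and Aldh1a2, which also makes retinoic acid, by 2.63 ± 0.52 (SE, adjusted p = 0.0271 and 0.0334). Of 24 genes of cyst fluid secretion and cAMP, Clic1, a chloride channel protein, rose by 0.87 ± 0.19 (SE, adjusted p = 0.0397) and no other passed. Among all genes, 1.96% rose. Esr1, the estrogen receptor, had a slope of 0.10 ± 0.28 (SE, adjusted p = 0.875). The stress response and sex-biased lists, of 24 genes each, had none called, with medians of 0.15 and -0.32. With litter added, 3 stress response genes were called higher, Nupr1 and Phgdh among them (edgeR, adjusted p = 0.0255 and 0.0272), and no sex-biased gene was called. DESeq2's Wald test called 4 stress response genes higher and 1 lower, and 3 sex-biased genes lower.

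Marker lists of tissues next to the kidney were read for the same mice. Of the 6 tested adipose genes, Pck1, which the kidney also expresses, was the one that passed, and Adipoq was at 40.3 CPM in FM3 and 5.22 CPM in MM4 and at 0 to 0.903 CPM in the other mutants (controls 0 to 12.6 CPM). The summed level of the adipose list was 980 to 2910 CPM in mutants and 1670 to 4260 CPM in controls. Pck1 alone was at 862 to 2810 CPM in mutants and 1550 to 4010 CPM in controls, so the sum mostly followed Pck1. Fabp4, another gene of the list, was at 246 CPM in FM3 and 65 to 131 CPM in the other mutants (controls 53.5 to 128 CPM). Of 7 liver genes the fibrinogen chains Fga and Fgb rose, which injured tubules also make, and Alb, which defines liver, had 4.63 to 54.1 CPM with no call. None of the erythroid, adrenal, pancreas, skeletal muscle or urothelium genes tested (4, 2, 1, 4 and 9) passed. The part of such tissue in the results was not tested.

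The 10 mice did not line up evenly along KBW. Taking neighbours in the KBW order of each sex, 290 of the 292 rising genes were higher in FM2 than in FM5, and all 75 falling genes were lower. From FM4 to FM5 the count was 222 of 292, from FM2 to FM1 250 and from FM1 to FM3 204. Of the 75 falling genes, 46 were lower in FM5 than in FM4, 39 in FM1 than in FM2 and 60 in FM3 than in FM1. In males 284 of the 292 were higher in MM4 than in MM2, 286 in MM3 than in MM5 and 288 in MM1 than in MM3. The exception was MM5, whose kidney was larger than that of MM4 but in which only 26 of the 292 rising genes were higher and 37 of the 75 falling genes lower. For the other male steps the falling counts were 63 from MM2 to MM4, 56 from MM5 to MM3 and 74 from MM3 to MM1. MM5 was the only male mutant of litter C, and FM5, of the same litter, was among the females with low values. The genes were chosen for a slope over all 10 mice, so these counts describe the mice and carry no test.

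Nor was the highest level always in the largest kidney. Of the 292 rising genes, 174 were highest in FM3, 69 in FM1 and 44 in MM1, although FM3 and FM1 had a KBW of 1.46% and 1.38% and MM1 one of 2.15%. These levels were compared across the sexes, while the slopes were fitted with a sex term. FM3 and MM1 had the largest kidneys of their own sex. Of the 75 falling genes, 49 were lowest in MM1 and 19 in FM3. At the other end, the lowest mouse for the rising genes was FM4 for 104, MM2 for 90 and MM5 for 80. Against the controls, 32 of the 292 rising genes were above every control in all 10 mutants, and 183 were inside the control range in FM4.

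Fitted apart, the female mutants gave larger median slopes than the males for the groups below. The females included FM4, the library that stood apart, and they were not fitted without it. The median slope was 4.15 in females alone and 1.61 in males alone for macrophage genes, 3.11 and 1.64 for tubule injury genes, 2.84 and 1.23 for MHC class II, and -1.23 and -0.32 for proximal tubule genes. In females alone 347 genes (2.32% of 14949) were higher and 38 (0.254%) lower with KBW, and in males alone none of 14402 passed (0%, with 1181 at an unadjusted p under 0.05). That contrast is no test of a difference. The test of the sex-by-KBW term called 1 of 15133 genes (0.00661%, edgeR quasi-likelihood), with 1135 at an unadjusted p under 0.05 and 17 called by DESeq2's Wald test. Mitosis genes had medians of 1.83 and 1.16.

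The gene with a called sex-by-KBW term was Ugt2b37, a glucuronosyltransferase of steroid and drug metabolism that is far higher in male than in female control kidneys. It was at 1.98, 3.64, 15.8, 27.5 and 50.4 CPM in the female mutants in order of KBW, rising at each step, against 0.648 to 1.45 CPM in female controls. In the male mutants it was at 54.4, 64.6, 53.6, 56.4 and 95.0 CPM, below every male control (97.3 to 129 CPM). The slope in males minus that in females was -6.92 ± 0.57 (SE, adjusted p = 0.000983, edgeR quasi-likelihood). No relative of it passed. Ugt2b38, also higher in male controls, was at 51.8 to 107 CPM in female mutants and 668 to 971 CPM in males, with a term of 0.70 ± 0.52, and Ugt2b34 and Ugt2b5 had terms of -0.26 ± 0.49 and -2.66 ± 0.97 (SE, adjusted p = 0.762, 0.926 and 0.624). These genes lie in one cluster on chromosome 5 and are similar in sequence, so the division of reads among them is uncertain. They were chosen after their values were seen.

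**Figure D5:**
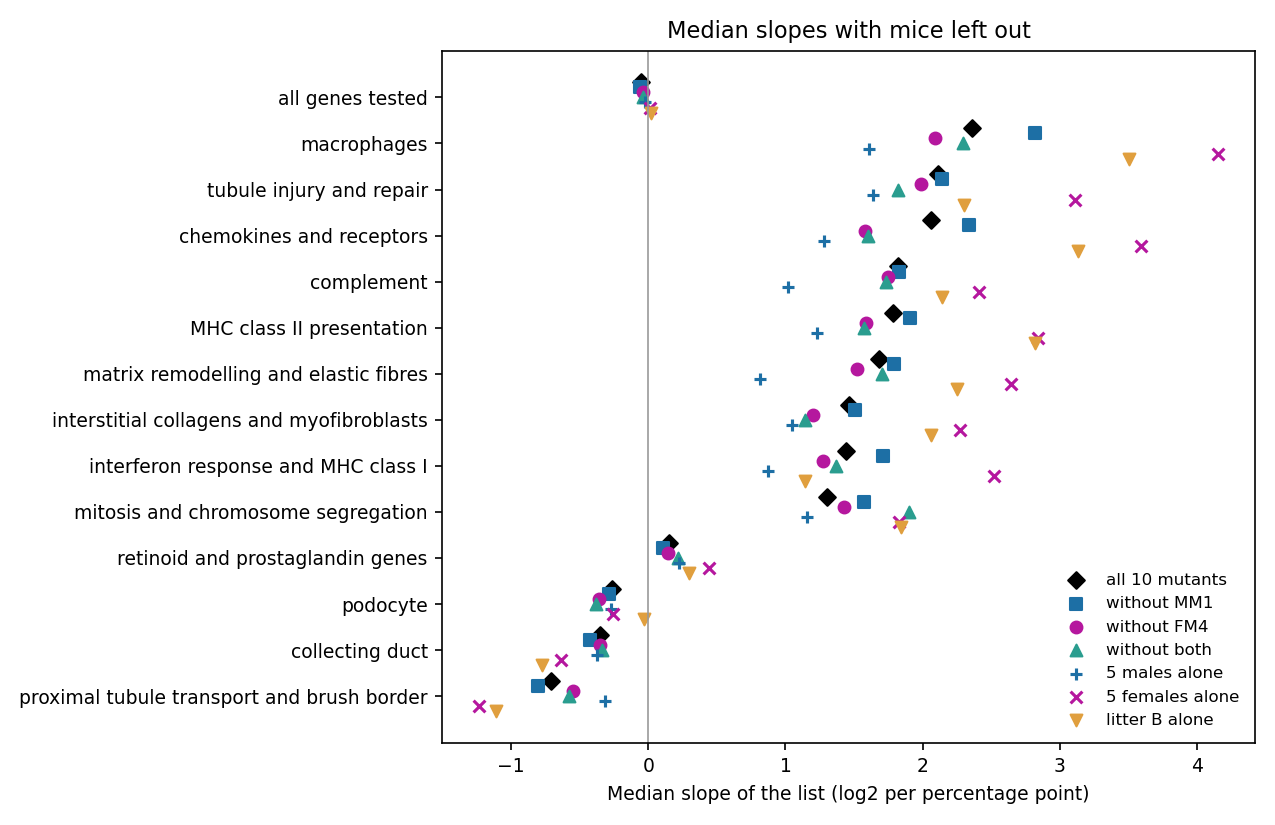
Median slope (log2 per percentage point of kidney to body weight) of the gene lists with at least 3 called members and of the mitosis list, with all 10 mutants and with mice left out. For macrophage genes the median is 2.36 with all mice, 2.29 without FM4 and MM1, 1.61 in males alone, 4.15 in females alone and 3.50 in litter B alone, while all genes tested stay near 0.

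Leaving out the ends of the gradient moved the list medians without changing their sign in these groups. Without FM4 the median slope of the macrophage list was 2.09 and without MM1 2.82, and for tubule injury genes the values were 1.99 and 2.14. For proximal tubule genes they were -0.55 and -0.80. In litter B alone, which holds 3 females and 2 males, the medians were 3.50 for macrophage, 2.30 for injury, 1.84 for mitosis and -1.11 for proximal tubule genes. Genes of low level also leaned upwards: the median slope of tested genes under 1 CPM was 0.35, and 0.14 without FM4, while that of genes over 100 CPM was -0.20 and -0.15.

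In the 10 controls, whose KBW ran only from 0.555% to 0.896%, the same test called none of 14760 genes (0%, edgeR quasi-likelihood), with 645 at an unadjusted p under 0.05 and 5 called by DESeq2's Wald test. That range is narrower than in mutants.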

How the data were processed

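Kidney RNA was sequenced from 20 mice, 1 library per mouse. The authors trimmed reads with fastp 0.23.2, aligned them to mm10 with STAR 2.7.10b, and deposited raw counts per gene symbol; the counting tool, annotation and strand setting are not given in the sources used here. The table had 24411 symbols, of which 4576 had no count, and totals of 11307741 to 19324073 counts per library (median 15813304.5). Depth limits calls for genes of few counts.

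Groups, sex, litter and weights came from the labels. Genes were kept by edgeR's filterByExpr, scaled by TMM and fitted with edgeR 4.0.16 (R 4.3.3) by quasi-likelihood on KBW and sex, with Benjamini-Hochberg adjustment over all genes tested. DESeq2 1.42.0 was an alternative. Library values and log2 CPM of Pkd2 (prior count 2) were tested by exact permutation within sex. The fit was tested on simulated data.

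Named genes were the 10 largest rises and 10 largest falls among called genes (mean level 1 CPM or more) with the same sign within each sex and without FM4 and MM1, plus members of 34 lists (757 genes, 750 in the table) and genes of interest. The mice, lists and genes were chosen with earlier results of these data known. Loci are from GENCODE vM21 (GRCm38), and promoters are from RefSeq (GRCm38.p6). Some list members that were tested and counted are not reported here by name.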

Additional observations from a re-analysis of the deposited data

Results flagged for a closer look

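In groups of 5 mice of 1 sex and genotype, 94 groups of values were checked for a mouse far from the others, by the gap to its nearest neighbour divided by the range of the group. Chance marks about 1 in 20 such groups, and 7 of the 94 passed the critical value of 0.71. For KBW it was MC5, the heaviest kidney among the male controls, at 0.736. MM1 was the mouse apart for Snhg11 (0.741), AI507597 (0.739) and Slc5a2 (0.798), being lowest among the male mutants for each. MM2 stood apart for Umod (0.729), and FM4 for the number of genes detected (0.85) and for Cd3e (0.743), which had no count in it.

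The slope on KBW of Ugt2b37 differed between the sexes by the test of that term, at -6.92 in males minus females (edgeR quasi-likelihood, adjusted p = 0.000983).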

How the results depend on the processing

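Counts of called genes moved with the model. The called genes that could be tested kept their sign in every alternative but the fit without a sex term, in which 352 of the 367 did. With DESeq2 size factors, every gene tested whatever its level, a minimum of 10 counts per mouse, robust fitting, or litter beside sex, 371, 434, 407, 372 and 396 genes passed, within 1.5 times of the 367. DESeq2's Wald test called 1350 (889 higher, 461 lower), log2 KBW 1051 (705 and 346), the rank of KBW within sex 706 (511 and 195) and all 20 mice in 1 fit 1716 (1066 and 650). Sex-by-litter groups left 194 (156 and 38), and no sex term 95 (8 and 87). Female mutants alone gave 385, with 38 lower. With kidney weight in place of KBW, in males alone, without both FM4 and MM1, in litter B alone, and at an adjusted p under 0.01, 0 passed, with 0 higher and 0 lower. Leaving out 1 mutant gave 0 to 727 called genes, 0 to 588 higher and 0 to 163 lower. The sex-by-KBW term gave 17 genes by the Wald test and 1 to 4 with 1 mutant left out, and the slope in controls gave 5 by the Wald test and 0 with any 1 control left out. The cause of these moves was not tested.

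Signs changed for few named genes, none of which but Angptl7 was called. Without the sex term the slopes were 1.07 for Acsm2, -0.82 for Aldh1a1, 0.389 for Angptl7, -0.141 for Cd3g, 0.309 for Errfi1, -0.134 for Pfkp, -0.418 for Stra6 and -0.082 for Umod, and -0.392 for the median of the retinoid and prostaglandin list. Aldh1a1 was at -0.0537 on log2 KBW, -0.0713 on kidney weight, -0.013 on the rank, -0.794 in females, -0.4 in litter B and -0.61 to 0.263 with 1 mouse left out (below 0 without MM2 or MM1). Aqp2 was at 0.154 in males and -0.598 to 0.153 with 1 mouse left out (above 0 without FM3). Esr1 was at -0.0396 on kidney weight, and -0.146 to 0.289 with 1 mouse left out (below 0 without MM2 or FM4). Pkd1 was at 0.0484 with litter, 0.168 with sex-by-litter groups, 0.0127 on the rank, 0.318 in females, 0.262 without FM4 and MM1, 0.597 in litter B, and -0.632 to 0.172 with 1 mouse left out (above 0 without MM5, MM4, MM1 or FM1). Stra6 was at -0.49 in females, -0.379 in litter B and -0.158 to 0.887 with 1 mouse left out (below 0 without MM1). Umod was at -0.0915 in litter B.

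Over all alternatives, slopes of named genes stayed on the same side of the threshold 2059 times, lost it 883 times and gained it 163 times. Litter B alone, the list medians and the promoter search were added after the data were seen. No paired analysis was possible because the replicate numbers follow only the order of the samples and pair no mice. Litter, which the labels give, was fitted as a covariate instead.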
